A study of Sus scrofa with 9 samples.

Results

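Most proteins of the mitochondrion are encoded in the nucleus and are imported after synthesis, and the 10 genes described here, TOMM40, TOMM20, TOMM22, TOMM34, TIMM10, TIMM8A, TIMM17A, TIMM23, TIMM50 and TIMM44, encode parts of that import route. They were taken by gene symbol from a deposited table with 19535 gene rows. A gene row under its own symbol was found for 8 of the 10, and all 8 had enough counts for testing. TIMM23 was read from the row LOC100157391, which the annotation describes as this gene, and TIMM10 from a row of the separate table of non-coding transcripts, because the annotation holds its porcine model as a long non-coding RNA. These 2 genes are therefore described but not counted among the 8.

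The cells were wild-type porcine valvular interstitial cells (PVICs), the cells that build and maintain the matrix of the aortic valve, grown from leaflets of pigs aged 4 to 5 months after the endothelial surface had been scraped off, and cultured with fetal bovine serum. The control group was kept in DMEM, the OIM group in an osteogenic medium with phosphate, ascorbic acid and insulin that induces calcium deposition, and the bFGF group in the same osteogenic medium with basic fibroblast growth factor at 50 ng/mL. Each group had 3 libraries. The treatment lasted 3 days according to the labels. The paper gives a shorter time, and the labels name a kit that depletes ribosomal RNA, whereas the paper names poly-A selection.

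Proteins with an import signal are recognised at the outer membrane by the receptors TOMM20 and TOMM22 and pass through the channel formed by TOMM40. Small chaperones of the intermembrane space, among them TIMM10 and TIMM8A, guide hydrophobic proteins across that space, while the TIM23 complex, with TIMM23, TIMM17A, TIMM50 and TIMM44, carries proteins with a presequence into or across the inner membrane. TOMM34 is a cytosolic co-chaperone that holds precursors on their way to the mitochondrion. In bulk cultures such as these, fewer cells of one kind and less RNA per cell cannot be told apart.

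The libraries held between 46773376 and 67371523 counts over genes, and the 3 bFGF libraries were the shallowest, at 48270827 counts or fewer. TMM normalization factors were 1.10 to 1.11 in bFGF and 0.936 to 0.967 in the other groups, and scaling by library totals alone moved the median log2 fold change of all genes up by 0.22 in both bFGF comparisons. All 10 markers of interstitial cells were detected in every group, and their summed level was 61531 to 70320 CPM (counts relative to the TMM-scaled library total) in control and OIM and 37559 to 37915 in bFGF. Against OIM, the bFGF libraries had 5 of these 10 markers called lower and 1 called higher. The 8 endothelial markers summed to 20.8 to 24.1 CPM in control and OIM and to 36.3 to 38.8 in bFGF, with 6 of the 8 called higher in bFGF than in OIM. Leukocyte markers summed to 14.5 to 18.1 CPM in control and OIM and to 9.03 to 9.85 in bFGF, and 2 of the 6 tested were called lower than in OIM, with the T cell marker CD3E at 0 in every library. Muscle markers summed to 560 to 570 CPM in control, 629 to 932 in OIM and 119.9 to 130.3 in bFGF. In bFGF, 4 of the 5 tested were called lower than in OIM, with TNNT2 at 0 throughout. In OIM against control, 2 of these 5 were called higher, where 1.49% of all genes were. They were DES (log2 fold change of 3.33, at 0.398 CPM in control) and MYH11 (1.13). Of all genes tested in bFGF against OIM, 17.7% were called higher and 18.4% lower. The part of these shifts in the results on import genes was not tested.

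A gene was called changed when the quasi-likelihood test of edgeR gave a p, adjusted after Benjamini and Hochberg, of at most 0.05 over the 13662 genes tested and the absolute log2 fold change was at least 0.5. Under this rule, 6 of the 8 import genes were called higher in bFGF than in OIM, where 17.7% of all genes tested were, and 6 of 8 were called higher in bFGF than in control, where 18.9% of all genes tested were. Without the limit on the fold, all 8 had a higher level at the adjusted p in both comparisons, against 33.8% of all genes for bFGF against OIM and 34.5% for bFGF against control. In both comparisons, every bFGF library lay above every library of the other group for all 8 genes, which was the case for 36.3% of all genes against OIM and for 36.4% against control. OIM and control differed little, and 0 of the 8 were called, where 2.35% of all genes tested were called in either direction. The 2 bFGF comparisons share their bFGF libraries, so their results are not independent.

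**Figure D1:**
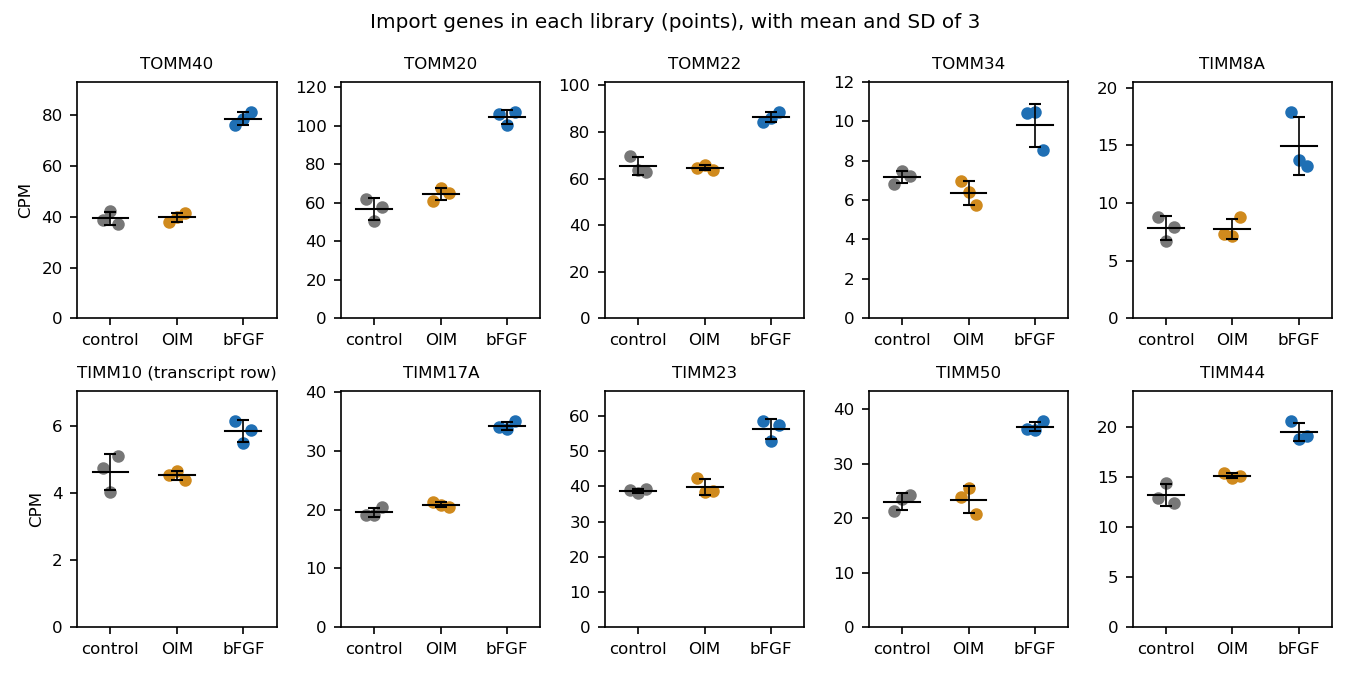
Level of each import gene in CPM (vertical axes, each from 0) in the control, OIM and bFGF groups; points are libraries, and the bar with whiskers is the mean and SD of 3. In all 10 panels the 3 bFGF points lie above all control and OIM points, while control and OIM overlap or nearly touch; TIMM10 comes from the table of non-coding transcripts.

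Among the outer membrane genes, TOMM40, which encodes the import channel, stood at 38.7, 42.3 and 37.3 CPM in the control libraries, at 37.8, 39.9 and 41.6 in the OIM libraries, and at 76.1, 78.7 and 81.1 in the bFGF libraries. The control and OIM values were intermixed, and the lowest bFGF value was well above both. The mean rose from 39.8 ± 1.88 CPM in OIM to 78.6 ± 2.51 in bFGF (SD, n = 3 each), a log2 fold change of 0.98 (SE 0.054, Benjamini-Hochberg adjusted p = 2.60e-12 in the quasi-likelihood test of edgeR), and by 0.99 (SE 0.054, adjusted p = 1.83e-12) against control. OIM against control gave 0.01 with a 95% interval of -0.12 to 0.15 and an adjusted p of 0.929 in the same edgeR fit. On the scale of log2 fold changes, TOMM40 stood above 90.3% of all genes tested in bFGF against OIM.

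TOMM20, the receptor for presequences, had 62.1, 50.5 and 57.5 CPM in control, 61.0, 67.6 and 64.8 in OIM, and 106, 100.2 and 107 in bFGF. It was the most variable of the outer membrane genes within control, and the control and OIM ranges overlapped. The bFGF mean of 104 ± 3.59 CPM exceeded the OIM mean of 64.5 ± 3.33 by a log2 fold change of 0.69 (SE 0.060, adjusted p = 2.67e-09 by edgeR), and the control mean of 56.7 ± 5.85 by 0.88 (SE 0.060, adjusted p = 6.51e-11). TOMM20 was also the only one of the 8 with an adjusted p under 0.05 for OIM against control, at a log2 difference of 0.19 (SE 0.060, adjusted p = 0.0463 by edgeR), which is under the fold limit. Its adjusted p ranged from 0.0114 to 0.223 over the alternatives run, and without the second control library the difference was 0.11 (adjusted p = 0.223). Of all genes tested, 7.69% were higher in OIM at that adjusted p.

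TOMM22, the central receptor that links TOMM20 to the channel, moved less. Its levels were 69.7, 63.8 and 62.9 CPM in control, 64.6, 65.9 and 63.7 in OIM, and 84.1, 86.2 and 88.4 in bFGF. All bFGF libraries were above the others, yet the log2 difference of 0.41 against OIM (SE 0.046, adjusted p = 1.06e-07 by edgeR) and 0.40 against control (SE 0.046, adjusted p = 1.73e-07) stayed under the fold limit. The exons of TOMM22 share 562 of 2871 bases with JOSD1 on the opposite strand, and whether the counting used strand is not given in the sources used here. JOSD1 itself had 83.4 to 88.0 CPM in OIM and 74.8 to 76.5 in bFGF, a log2 difference of -0.18, the opposite sign to TOMM22. A further gene annotated as a TOM22 homolog, LOC100739656, had 0 counts in the 9 libraries.

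Ratios of counts between the outer membrane genes were also read. TOMM40 had 0.585 to 0.652 counts per count of TOMM22 in the OIM libraries, 0.555 to 0.664 in control and 0.904 to 0.917 in bFGF. Its ratio to TOMM20 was 0.590 to 0.641 in OIM and 0.718 to 0.785 in bFGF, and the bFGF values lay inside the control range of 0.623 to 0.838. These pairs were chosen after their values were seen and were not tested. TOMM40L, the paralog of TOMM40, was called higher as well (log2 fold change of 0.61, SE 0.069, adjusted p = 1.67e-07 by edgeR for bFGF against OIM), and TOMM40 exceeded it by 1.39 to 1.52 times in counts in OIM and by 1.74 to 2.02 times in bFGF. The small channel subunits TOMM5 and TOMM7, which stabilise the complex, were called higher against OIM, at 0.55 (adjusted p = 1.16e-05) and 0.52 (adjusted p = 9.91e-05) by edgeR. Against control, TOMM7 was called (0.54) and TOMM5 was not (0.35). TOMM70, the receptor for carrier proteins, differed by 0.16 against OIM and 0.12 against control, and TOMM6 had 0 counts in the 9 libraries.

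TOMM34 was among the lowest of the 10 in CPM, at 6.83, 7.46 and 7.22 CPM in control, 6.96, 6.42 and 5.72 in OIM, and 10.4, 10.4 and 8.52 in bFGF. The third bFGF library was nearer to the control libraries than the other two were. TOMM34 was called against OIM (log2 fold change of 0.62, SE 0.113, adjusted p = 6.62e-05 by edgeR) and not against control (0.45, SE 0.112, adjusted p = 0.00143), where leaving out the third bFGF library raised the value to 0.54 and made it a call.

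In the intermembrane space, TIMM8A, whose human gene is mutated in deafness-dystonia syndrome, stood at 8.83, 6.75 and 7.92 CPM in control, 7.36, 7.18 and 8.79 in OIM, and 17.9, 13.7 and 13.2 in bFGF. The first bFGF library was the highest, and the other 2 were still well above the 6 remaining libraries. The log2 fold change was 0.94 against OIM (SE 0.125, adjusted p = 1.39e-06 by edgeR) and 0.93 against control (SE 0.125, adjusted p = 1.46e-06), next to TOMM40 in size and with more than double the SE of TOMM40. Its partner TIMM13 was called higher in both comparisons (0.76 and 0.67). TIMM8B, the paralog of TIMM8A, was called against control (0.57) and was just under the limit against OIM (0.48).

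TIMM10, the other small chaperone of the set, had 4.77, 4.04 and 5.10 CPM in control, 4.55, 4.67 and 4.40 in OIM, and 6.15, 5.50 and 5.91 in bFGF, from estimated counts of 1 transcript. The bFGF libraries were again the 3 highest. The log2 difference of 0.37 against OIM (SE 0.137, 95% interval 0.03 to 0.70) was not called among the non-coding transcripts (adjusted p = 0.153 by edgeR), of which 9.28% were called in either direction, nor was the 0.33 against control (adjusted p = 0.166, against 12.2% called). OIM against control gave -0.03, and 0.0444% of these transcripts were called there. The partners of TIMM10 differed from each other: TIMM9 was higher by 0.43 against OIM, under the limit (adjusted p = 1.60e-05 by edgeR), and TIMM10B stood at -0.05 with an interval of -0.27 to 0.17.

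Of the TIM23 complex, TIMM17A, a channel subunit, had 19.0, 19.1 and 20.4 CPM in control, 21.3, 20.8 and 20.4 in OIM, and 34.0, 33.7 and 35.0 in bFGF. The spread within groups was small, with an SD of 0.660 CPM around the bFGF mean of 34.2. TIMM17A rose by a log2 fold change of 0.72 against OIM (SE 0.061, adjusted p = 2.14e-09 by edgeR) and 0.81 against control (SE 0.061, adjusted p = 3.11e-10). TIMM17B, the paralog that can take its place in the complex, gave 0.37 and 0.48 in the same comparisons and was not called.

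TIMM23, the other channel subunit, had 39.1, 38.2 and 39.1 CPM in control, 42.5, 38.4 and 38.8 in OIM, and 58.5, 53.0 and 57.3 in bFGF. It lay at the fold limit, with 0.50 (0.496 before rounding, SE 0.054, adjusted p = 8.96e-08 by edgeR) against OIM, not called, and 0.54 (SE 0.054, adjusted p = 2.76e-08) against control, called. Leaving out the first OIM library or the second bFGF library gave 0.54 against OIM and made it a call. Of its 3039 exon bases, 521 are shared with NCOA4 and 61 with PARG, both on the opposite strand; in bFGF against OIM, NCOA4 differed by 0.03 and PARG by 0.22.

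TIMM50, the receptor of the complex, was at 21.4, 23.6 and 24.3 CPM in control, 24.0, 25.6 and 20.8 in OIM, and 36.4, 36.3 and 37.8 in bFGF. TIMM44, which anchors the import motor on the matrix side, was at 12.9, 14.4 and 12.4 CPM in control, 15.4, 14.9 and 15.1 in OIM, and 20.5, 18.8 and 19.1 in bFGF. TIMM44 was the one gene of the 8 in which the OIM libraries all exceeded the control libraries, by a log2 difference of 0.19 that was not called (SE 0.079, adjusted p = 0.114 by edgeR); 14.5% of all genes tested had that order. TIMM50 was called in both bFGF comparisons, at 0.65 (SE 0.073, adjusted p = 1.41e-07) and 0.67 (SE 0.073, adjusted p = 8.04e-08) by edgeR. TIMM44 was called against control at 0.56 (SE 0.078, adjusted p = 2.53e-06) and was under the limit against OIM at 0.36 (SE 0.078, adjusted p = 0.000341).

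Of the motor behind the channel, HSPA9, the matrix Hsp70 that pulls precursors in, was abundant and stood at 310 ± 6.21 CPM in OIM and 360.4 ± 5.41 in bFGF, a log2 difference of 0.22 that passed the adjusted p and not the fold limit (adjusted p = 8.00e-06 by edgeR). GRPEL1 and GRPEL2, its nucleotide exchange factors, differed by 0.26 (adjusted p = 0.00415) and 0.36 (adjusted p = 0.00184 by edgeR), also under the limit; they were named after their values were seen. DNAJC19, a co-chaperone of the motor, differed by -0.06 with an interval of -0.30 to 0.18, and TIMM21, which couples the outer and inner machineries, by -0.14 with an interval of -0.40 to 0.12. TIMM22, the channel for carrier proteins, was called against OIM at 0.51 (adjusted p = 0.000324 by edgeR) and not against control at 0.36.

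**Figure D2:**
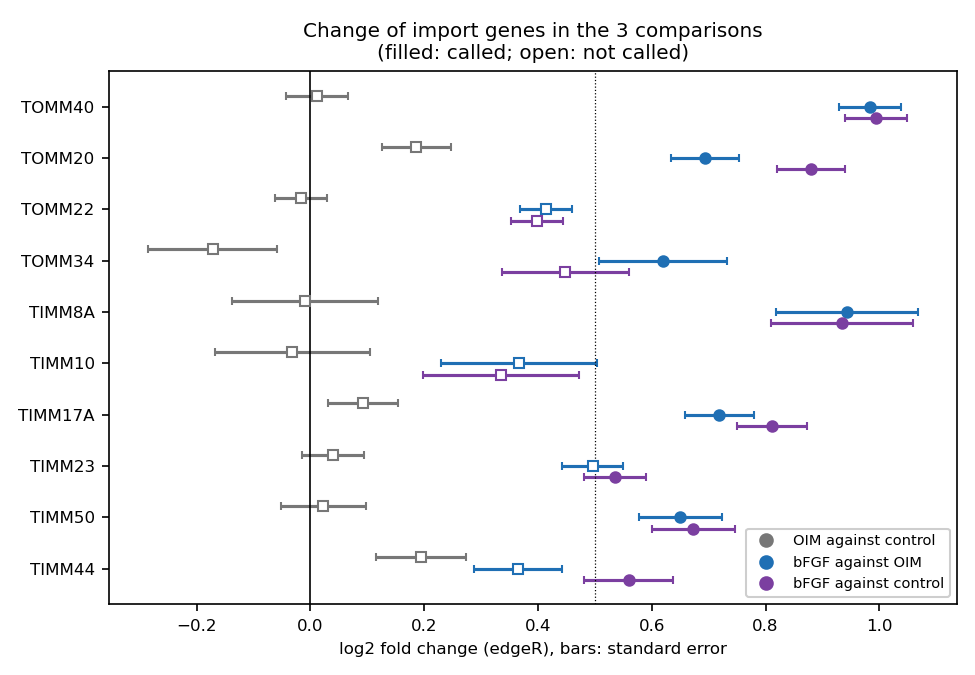
Log2 fold change (horizontal axis) of each import gene from edgeR, with its standard error as the bar, for OIM against control (grey), bFGF against OIM (blue) and bFGF against control (purple); filled points were called, open points were not, and the dotted line is the fold limit of 0.5. The grey points lie between -0.17 and 0.19, while the blue points run from 0.36 for TIMM44 to 0.98 for TOMM40.

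For OIM against control as a whole, the log2 differences of the 8 genes ran from -0.17 for TOMM34 to 0.19 for TIMM44, with a median of 0.02 where that of all genes tested was -0.0019. By edgeR 0 of the 8 were called, 2 had an unadjusted p under 0.05, as 26.2% of all genes tested did, and DESeq2 called 0. The corresponding medians were 0.67 for bFGF against OIM, where that of all genes was -0.0029, and 0.74 for bFGF against control, where that of all genes was -0.02. When TMM was replaced by the plain library totals, 8 of 8 were called in each bFGF comparison, where 27.3% of all genes were called higher against OIM and 28.8% against control, on a scale on which all genes had moved up by 0.22.

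Levels can be compared between genes only per length, so the counts were also divided by exon length and library size (FPKM), leaving out TIMM10 because its counts were estimated in another way. In control, TOMM22 (22.8 ± 1.30) and TOMM40 (22.7 ± 1.48 FPKM) led and differed by less than the SD of either, followed by TIMM17A (20.8 ± 0.870) and TOMM20 (16.7 ± 1.73). TIMM23 (12.8 ± 0.174) and TIMM50 (12.3 ± 0.818) came next and differed by less than the spread of TIMM50. TIMM44 (6.87 ± 0.556), TIMM8A (5.21 ± 0.693) and TOMM34 (3.56 ± 0.158) had the lowest levels in FPKM. In OIM, TOMM40 (22.8 ± 1.08), TOMM22 (22.5 ± 0.376) and TIMM17A (22.2 ± 0.470 FPKM) were within 1 SD of TOMM40 of each other. In bFGF, TOMM40 stood apart at 45.2 ± 1.44 FPKM, ahead of TIMM17A at 36.6 ± 0.705, while TOMM20 (30.8 ± 1.06) and TOMM22 (30.04 ± 0.743) differed by less than the SD of TOMM20. TIMM50 (19.7 ± 0.451) and TIMM23 (18.5 ± 0.948) followed, and TIMM44 (10.1 ± 0.477) and TIMM8A (9.95 ± 1.69) could not be separated by their spread.

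Ratios of 4 pairs of related genes were taken from the counts within each library, which does not depend on how the libraries are scaled. TIMM17A had 1.45 to 1.75 counts per count of TIMM17B in OIM and 1.90 to 2.14 in bFGF, without overlap. The ratio of TIMM8A to TIMM8B was 0.785 to 0.872 in OIM and 1.03 to 1.27 in bFGF, also without overlap, while the control range of 0.736 to 1.06 reached into the bFGF range. TIMM23 to TIMM22 gave 3.74 to 4.76 in OIM and 3.40 to 4.60 in bFGF, which overlapped widely. A two-sided exact permutation test of 3 against 3 cannot go below p = 0.1, which was the p for TIMM17A to TIMM17B, TIMM8A to TIMM8B and TOMM40 to TOMM40L in bFGF against OIM (0.24 after Benjamini-Hochberg adjustment over the 12 tests), so none of these passed a threshold of 0.05. Against control, TIMM8A to TIMM8B gave an exact permutation p of 0.2. In OIM against control the exact permutation p was 0.3 or more for all 4 pairs.

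**Figure D3:**
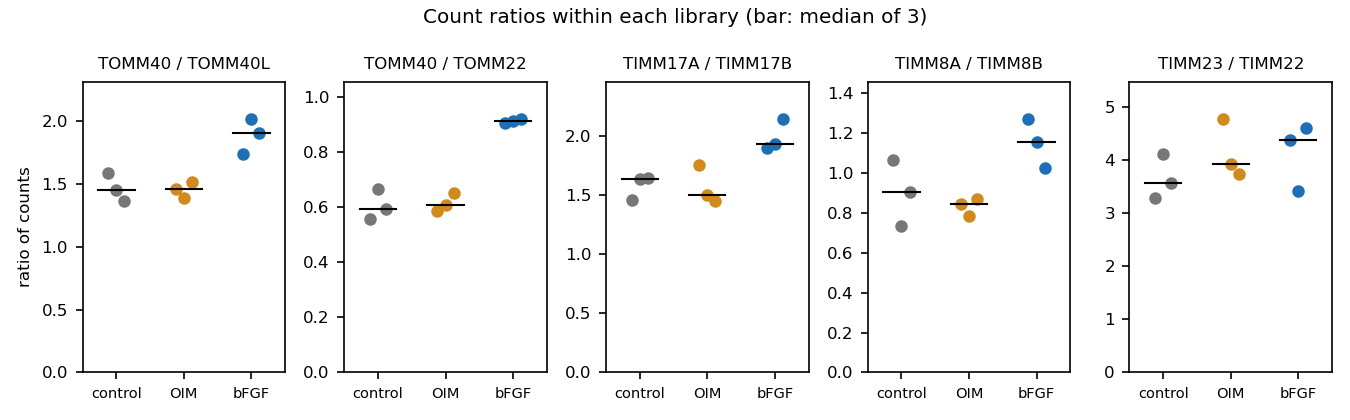
Ratio of counts of 2 genes within each library (vertical axes, each from 0) in control, OIM and bFGF; points are libraries and bars are medians of 3. TOMM40 to TOMM22 lies at 0.904 to 0.917 in bFGF and at most 0.664 elsewhere, whereas TIMM23 to TIMM22 overlaps between all groups.

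A list of 41 other genes of the import route was examined next, of which 38 had a row and 37 were tested. In OIM against control, 0 of the 37 were called by edgeR, 8 had an unadjusted p under 0.05, and DESeq2 called 1, IMMP2L. Of all genes tested in this comparison, 2.35% were called and 26.2% had an unadjusted p under 0.05. In bFGF against OIM, 13 were called higher and 0 lower, where the shares of all genes were 17.7% higher and 18.4% lower. In bFGF against control, 10 were called higher and 0 lower, where 18.9% and 20.0% of all genes were. The median log2 fold change was 0.36 in both. At the adjusted p alone, 26 of the 37 were higher and 1 lower than in OIM, where 33.8% and 33.5% of all genes were. Against control, 25 were higher and 2 lower, where 34.5% and 35.7% of all genes were. XPNPEP3, a mitochondrial aminopeptidase, was lower against both (-0.12 and -0.11) and IMMP1L, a peptidase subunit, against control (-0.40). Both genes were named after their values were seen. Rows for PAM16, PMPCA and HSP90AA1 were not found under these symbols.

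The genes called higher included folding factors on both sides of the membranes. HSPD1 and HSPE1, the matrix chaperonin and its lid, rose from 223 ± 8.20 to 343 ± 3.59 CPM and from 39.5 ± 1.60 to 63.2 ± 0.373 CPM between OIM and bFGF, log2 fold changes of 0.62 (adjusted p = 5.23e-12) and 0.68 (adjusted p = 3.16e-09) by edgeR. HSPA8 and DNAJA1, a cytosolic Hsp70 and its co-chaperone that keep precursors unfolded, rose by 0.63 (adjusted p = 1.91e-13) and 0.70 (adjusted p = 2.05e-11). CHCHD4 and GFER, the oxidoreductase pair that folds small intermembrane proteins such as TIMM8A, rose by 0.73 and 0.52 (adjusted p = 1.50e-06 and 4.63e-06). HSCB, a co-chaperone of iron-sulfur cluster assembly, was called against OIM (0.54) and not against control (0.27).

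IMMP2L, a subunit of the inner membrane peptidase, had the highest log2 fold change of the list against OIM, 0.97 (SE 0.198, adjusted p = 0.000224 by edgeR), at low levels of 1.76 ± 0.406 CPM in OIM and 3.47 ± 0.505 in bFGF. Control stood at 2.66 ± 0.131 CPM, and neither OIM against control (-0.59, adjusted p = 0.0566 by edgeR) nor bFGF against control (0.38, adjusted p = 0.0829) was called. The 24 genes of the list that were not called lay between -0.14 and 0.73 against OIM, the highest of them TOMM20L, which had under 1 CPM.

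**Figure D4:**
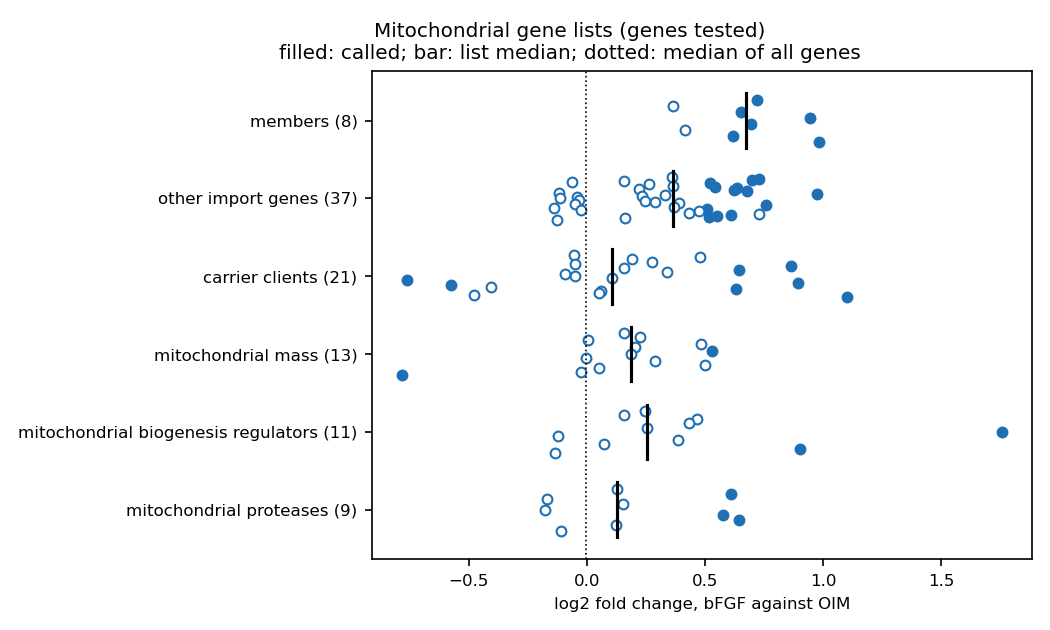
Log2 fold change of bFGF against OIM (horizontal axis) for the tested genes of 6 lists; each point is a gene, filled where called, the black bar is the median of the list and the dotted line the median of all genes tested. The import genes have a median of 0.67 and the other import genes one of 0.36, with 0 genes called lower in either, whereas the carrier list holds genes called in both directions.

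Further lists of mitochondrial genes were set beside the import genes. Carriers of the SLC25 family, which reach the inner membrane through the small chaperones, had 5 of 21 tested genes called higher and 2 lower in bFGF against OIM, with a median of 0.11, where 17.7% of all genes were called higher and 18.4% lower. SLC25A5, an ADP/ATP carrier, rose from 63.1 ± 3.85 to 135 ± 4.79 CPM (log2 fold change of 1.10, adjusted p = 1.04e-13 by edgeR), a size close to that of TOMM40. SLC25A33, a pyrimidine nucleotide carrier, rose by 0.89, and SLC25A32, a folate and FAD carrier, fell by 0.76 on the log2 scale. SLC25A22, a glutamate carrier (0.64), SLC25A39 (0.63) and SLC25A36 (-0.57) were also called and are named after their values were seen. Against control, where 18.9% of all genes were called higher and 20.0% lower, 6 carriers were called higher and 2 lower, among them SLC25A33 at 1.10 and SLC25A5 at 1.09.

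Of 13 tested genes often used to gauge mitochondrial mass, 8 were higher and 1 was lower than in OIM at the adjusted p, and 9 and 1 than in control. Of all genes tested, 33.8% were higher and 33.5% lower than in OIM at that p, and 34.5% and 35.7% than in control. Past the fold limit, where 17.7% of all genes were called higher and 18.4% lower than in OIM, PHB, a prohibitin of the inner membrane, was called higher against OIM (0.53) and VDAC3, an outer membrane porin, lower (-0.78, adjusted p = 5.47e-12 by edgeR), with a median of 0.19. Against control, TUFM, the mitochondrial translation factor, was called higher as well (0.59). VDAC1, the main porin, looked at after its values were seen, differed by 0.05 against OIM (adjusted p = 0.191) and by 0.0013 against control. TOMM40 had 0.138 to 0.152 counts per count of VDAC1 in OIM and 0.266 to 0.280 in bFGF.

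Among 11 regulators of mitochondrial biogenesis, 2 were called higher and 0 lower in each bFGF comparison, a share near the 17.7% and 18.9% of all genes. At the adjusted p alone, 8 of the 11 were higher and 1 lower than in OIM, where 33.8% and 33.5% of all genes were. Against control, 7 were higher and 1 lower, where 34.5% and 35.7% of all genes were. The median log2 fold changes of these regulators were 0.26 against OIM and 0.39 against control. TFB2M, a transcription factor of mitochondrial DNA, rose from 7.32 ± 0.403 CPM in OIM to 13.7 ± 2.17 in bFGF (0.90, adjusted p = 4.76e-07 by edgeR). PPARGC1A, which encodes the coactivator PGC-1α, was called against OIM (1.76, SE 0.579, adjusted p = 0.0115) at under 1 CPM in every group, and not against control (0.73, adjusted p = 0.231). MYC was called against control (0.64) and was under the limit against OIM (0.43). Of 9 mitochondrial proteases, 3 were called higher and 0 lower in each bFGF comparison, where 17.7% and 18.9% of all genes were called higher. Against OIM these were PITRM1, which degrades cleaved presequences (0.64), CLPP, a matrix protease (0.61), and OMA1, a stress-activated inner membrane protease (0.57). At the adjusted p alone, 4 of the 9 proteases were higher and 3 lower than in OIM, where 33.8% and 33.5% of all genes were. The 3 lower were CLPX (-0.17), LONP1 (-0.18) and YME1L1 (-0.11), all named after their values were seen.

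To find the genes whose pattern was most like that of TOMM40, Pearson's r of log2 CPM over the 9 libraries was computed for 13387 genes with a mean of at least 10 counts. PDP2, a phosphatase of pyruvate dehydrogenase, had 0.997, OXR1 0.996, ENTPD6 0.996, LEF1 0.996 and PHF5A 0.995. A value of 0.9 or more was shared by 2865 genes. The 9 points fall into the 3 bFGF libraries and the 6 others, so r describes mainly that separation. Among the import genes themselves, r with TOMM40 ran from 0.858 for TOMM34 to 0.977 for TIMM17A.

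The promoters were examined for letters that regulators of mitochondrial genes are known to bind, in windows from 250 bases before to 50 bases after the annotated start on Sscrofa11.1. The genes lie apart on 7 chromosomes. TOMM40 is on chromosome 6 from 51359948 to 51369932 on the plus strand with 10 exons, and TIMM50 is on the same chromosome from 48126470 to 48134664. TIMM8A is on chromosome X from 82978128 to 82981038 on the minus strand with 2 exons, and TOMM20 on chromosome 14 from 56113087 to 56127686 on the plus strand with 5 exons. The E-box CACGTG, the site of MYC and related factors, was searched on both strands and found before the start of TIMM8A, at bases -34 to -29, and of TOMM20, at bases -158 to -153. These 2 stretches, with the E-box in capitals, and the last 30 bases before the start of TOMM40, the gene with the largest log2 fold change, are shown 5′ to 3′ on the strand of each gene, at chrX:82981055-82981084 (minus strand), chr14:56112917-56112946 (plus strand) and chr6:51359918-51359947 (plus strand).
TIMM8A: tcgggaacgggcCACGTGgtctgaagtaac
TOMM20: gcgcacgacggcCACGTGccaacaccctta
TOMM40: ccggtgggcggacgcaagggcccgttaaac

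With the window of TIMM10, where the E-box lies at bases 41 to 46 after the start, 3 of the 10 import genes held CACGTG, against 7.93% of 19526 promoter windows of the same length. CCGGAAGT, bound by ETS factors and GABP, was found in 1 of the 10, TOMM20, and in 4.68% of all windows. GCATGCGC, the core of the NRF1 motif, was found in 1, TOMM34, and in 3.06% of all. TGATGCAA (ATF4) and TGACGTCA (CREB) were found in 0 of the 10, and in 0.681% and 2.26% of all windows. The motifs do not overlap one another in these windows. TOMM40, with 60.4% G and C in the 250 bases before its start where the median of all genes was 57.6%, held none of the 5. A match is a description of the letters and not a site of binding, and binding was not measured here.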

How the data were processed

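RNA from PVICs of 3 groups was sequenced in 3 libraries each. The authors deposited counts that were not normalized: whole-number counts for genes and estimated counts for 9888 non-coding transcripts, of which 44.6% of values were not whole; these were rounded here before testing. The paper names Cutadapt and STAR, and the submitters' processing notes name Trimmomatic, HISAT2, StringTie and Sscrofa11.1; the counting program and its use of strand are not given in the sources used here. A further 19 unnamed, empty columns were not used.

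Groups and replicate numbers came from the labels, which do not say that libraries came from separate cultures, so p-values measure the spread between these libraries. Gene counts were filtered with filterByExpr, scaled by TMM and tested with edgeR 4.0.16 in R 4.3.3 on all 9 libraries (6 residual degrees of freedom, common biological coefficient of variation 0.0602). Non-coding transcripts were fitted separately with the library sizes of the genes. CPM values use TMM-scaled totals, and 95% intervals use 6 degrees of freedom. The p-values of edgeR rest on a spread moderated over genes and on more degrees of freedom. The intervals are therefore wider than these p-values imply. DESeq2 1.42.0, other scalings, other filters, a replicate block and leaving out each library were alternatives. The test was checked on simulated counts.

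The genes named were the 10 import genes, their paralogs and partners, up to 10 called genes of the other import list and up to 4 of each further list by size of change, and the 5 genes most like TOMM40; exceptions are stated, and 1 gene is not reported here. Members and lists were chosen with earlier results of these data known. No protein sequence was used here.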

Additional observations from a re-analysis of the deposited data

Results flagged for a closer look

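The table of circular RNAs, which no comparison above uses, held 4 back-splice junction reads at TOMM34 over the 3 OIM libraries and 0 in control and in bFGF, which is above the control level; 4 reads are too few for a test.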

How the results depend on the processing

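In both bFGF comparisons, the log2 differences of the 8 import genes and of TIMM23 stayed above 0 under every alternative run, and 6 to 8 of the 8 were called. With library totals alone, TOMM22 (0.64 against OIM and 0.62 against control), TIMM44 (0.59 against OIM), TOMM34 (0.67 against control) and TIMM23 (0.72 against OIM) passed the fold limit as well. The same scaling gave 21 calls among the other import genes in each bFGF comparison. With it, 27.3% of all genes were called higher against OIM and 28.8% against control. Dropping the fold limit gave 27 in each, 26 higher and 1 lower against OIM and 25 higher and 2 lower against control. Of all genes, 33.8% were higher and 33.5% lower against OIM at the adjusted p, and 34.5% and 35.7% against control. Both counts of calls follow from the construction of the alternative. In OIM against control, dropping the fold limit gave 1 call among the 8, which was higher in OIM. It gave 2 among the other import genes, 1 higher and 1 lower. Of all genes tested, 7.69% were higher in OIM at the adjusted p alone. The other import genes had 1 call with no filter on low counts and 1 with DESeq2, and the cause was not tested. Leaving out each library in turn gave 0 to 1 calls there, the 1 without OIM replicate 2, and 10 to 13 and 10 to 12 in bFGF against OIM and against control. The small differences of OIM against control changed sign when a library was left out for 5 genes, with ranges of -0.0270 to 0.0653 for TOMM40, -0.0437 to 0.0311 for TOMM22, -0.0435 to 0.103 for TIMM50, -0.106 to 0.0840 for TIMM8A and -0.00699 to 0.0681 for TIMM23 (LOC100157391).

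Libraries with the same replicate number did not deviate together (correlations of -0.03 to 0.0035, and 0 of 18 pairings best with the own number), and a replicate block left 6, 6 and 0 of the 8 called in bFGF against OIM, bFGF against control and OIM against control. Thinning the libraries to equal depth or leaving out the 50 most abundant genes, both chosen after seeing the data, left these counts at 6, 6 and 0. Depth limits TIMM10, TOMM34 and TIMM8A most, with 244.7 to 958 counts per library.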

Other observations

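A gene model annotated as PAM16, a motor subunit, was LOC100513346, whose 36 exons run over chromosome 3 from 37928098 to 38005619. Whether its counts are those of PAM16 alone was not tested. It differed by 0.09 in bFGF against OIM, with an interval of -0.09 to 0.28.

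At the locus of TIMM23, 2 circular RNAs had 5 junction reads in all, 3 in control, 2 in OIM and 0 in bFGF. No circular RNA was listed at the loci of the other import genes except TOMM34.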
